A study of Mus musculus with 96 samples.

Results

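Endothelial cells (ECs) of mouse hearts 14 days after acute myocardial infarction (D14) were compared with ECs of control hearts (D0) by small RNA-seq. The comparison held the 8 EC libraries whose labels give D14 or D0, 4 of each, out of 96 libraries in the series and 24 libraries of ECs. The mice were C57Bl6/J males of 12 to 14 weeks; at D14 the left anterior descending coronary artery had been ligated for good, and at D0 the mice had not been operated on, so that the D0 group is not a sham control. ECs were taken with anti-CD144 beads from digested hearts after CD45-positive cells had been removed, and the RNA of 3 mice was pooled for each library (2 mice in pools that lacked a sample). The study calls the pools both biological and technical replicates, so the p-values measure the spread between these pools. For each library the authors deposited raw counts of reads per mature miRNA. A total of 1978 mature miRNAs were listed, 983 had at least 1 count in the 8 libraries, and 421 were abundant enough to be tested.

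A miRNA is cut from a hairpin, which gives a 5p and a 3p arm. The mature arm guides a silencing complex to messenger RNAs, mainly through its seed, bases 2 to 8. Many miRNAs are typical of a cell type: miR-126a lies in the endothelial gene Egfl7 and acts in vascular integrity, miR-1a, miR-208a and miR-499 mark muscle, miR-143 and miR-145a mark mural cells around vessels, and miR-199a and miR-214 are abundant in mesenchymal cells such as fibroblasts. The imprinted Dlk1-Dio3 region holds one of the largest miRNA clusters of the mouse, expressed from the maternal chromosome together with the long non-coding RNAs Meg3, Rian and Mirg. In the infarcted heart, ECs take part in the growth of new vessels while fibroblasts build the scar.

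The mature sequences below are those of miRNAs on which the results turn, from RefSeq with positions on GRCm38, in which 355 of the 421 tested miRNAs were found. Capitals mark the seed. The first 4 lie in the Dlk1-Dio3 cluster, on the plus strand of chromosome 12, and were higher at D14.

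miR-127-3p (chr12:109592888-109592909): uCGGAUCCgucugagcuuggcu

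miR-379-5p (chr12:109709065-109709085): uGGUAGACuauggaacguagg

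miR-382-5p (chr12:109733781-109733802): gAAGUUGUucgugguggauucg

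miR-541-5p (chr12:109742422-109742446): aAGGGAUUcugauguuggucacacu

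The next 3 were higher outside it. miR-199a-3p and miR-199b-3p are the same sequence and were listed with identical counts in every EC library, so they are 1 measurement.

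miR-199a-3p (chr1:162217883-162217904, plus strand, an exon of Dnm3os; also made from a second copy): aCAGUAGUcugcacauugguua

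miR-214-3p (chr1:162223438-162223459, plus strand, an exon of Dnm3os): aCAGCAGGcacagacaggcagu

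miR-182-5p (chr6:30165962-30165986, minus strand): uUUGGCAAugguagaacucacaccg

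miR-125b-5p and miR-351-5p share a seed, CCCUGAG, with miR-125a-5p. The first 2 were higher at D14, and miR-125a-5p was not past the threshold.

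miR-125b-5p (chr9:41581940-41581961, plus strand, 1 of 2 copies): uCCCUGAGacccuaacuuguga

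miR-351-5p (chrX:53053315-53053338, minus strand): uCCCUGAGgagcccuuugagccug

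miR-125a-5p (chr17:17830817-17830840, plus strand): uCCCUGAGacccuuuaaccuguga

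The last 2 are muscle miRNAs, made from introns of the myosin genes Myh6 (miR-208a) and Myh7b (miR-499), and were lower at D14.

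miR-208a-3p (chr14:54949072-54949093, minus strand): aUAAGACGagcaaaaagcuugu

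miR-499-5p (chr2:155622893-155622913, plus strand): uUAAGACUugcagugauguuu

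The total of mature counts was 2105446 to 20465553 at D0 (median 4262998) and 1149754 to 4863329 at D14 (median 3829477), and 574 to 808 against 501 to 671 miRNAs were detected. Values below are CPM (counts per 1000000 mature counts of the library), scaled by edgeR's TMM factors, which were 0.870 to 0.988 at D0 and 1.02 to 1.21 at D14, unless another scale is named. One library stood apart. Replicate 4 of D14 was the shallowest, and its mean distance to the other D14 libraries was 1.32 (root mean square of the log2 differences), against 0.791 to 0.815 for the other 3 and 0.583 to 0.646 at D0. Results that rest on it are given with and without it.

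The endothelial marker miR-126a-3p was the most abundant miRNA in both groups and did not separate them. It stood at 191441, 172943, 241838 and 222925 CPM at D0 and at 225764, 199424, 205075 and 163726 CPM at D14, so that the groups overlapped. Its log2 fold change was -0.06 ± 0.17 (SE, edgeR quasi-likelihood, adjusted p = 0.827). Its other arm, miR-126a-5p, was at 4007 to 6072 CPM at D0 and at 1994 to 5013 CPM at D14 (log2 fold change -0.36 ± 0.34, edgeR adjusted p = 0.508). None of the 4 tested miRNAs of the 126 family passed the test. The antisense hairpin of miR-126b lies on the other strand of the same Egfl7 exon, and the counts of miR-126b-3p were 99.96% to 100.04% of those of miR-126a-5p in every library, so the 2 cannot be told apart.

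At D14, 61 of the 421 miRNAs (14.5%) differed from D0 at an adjusted p under 0.05, 48 of them higher (11.4%) and 13 lower (3.09%). Of these 61, 53 also had no overlap between the 4 libraries of each group, which held for 109 of all 421 miRNAs (25.9%), 70 of them higher (16.6%) and 39 lower (9.26%). With D14 replicate 4 left out, 45 miRNAs were called (10.7%), 38 higher (9.03%) and 7 lower (1.66%), and 43 miRNAs were called both ways. With library size as the only scaling, 72 were higher and 9 lower, and over all miRNAs tested the median log2 fold change was 0.34 in place of 0.12.

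**Figure D1:**
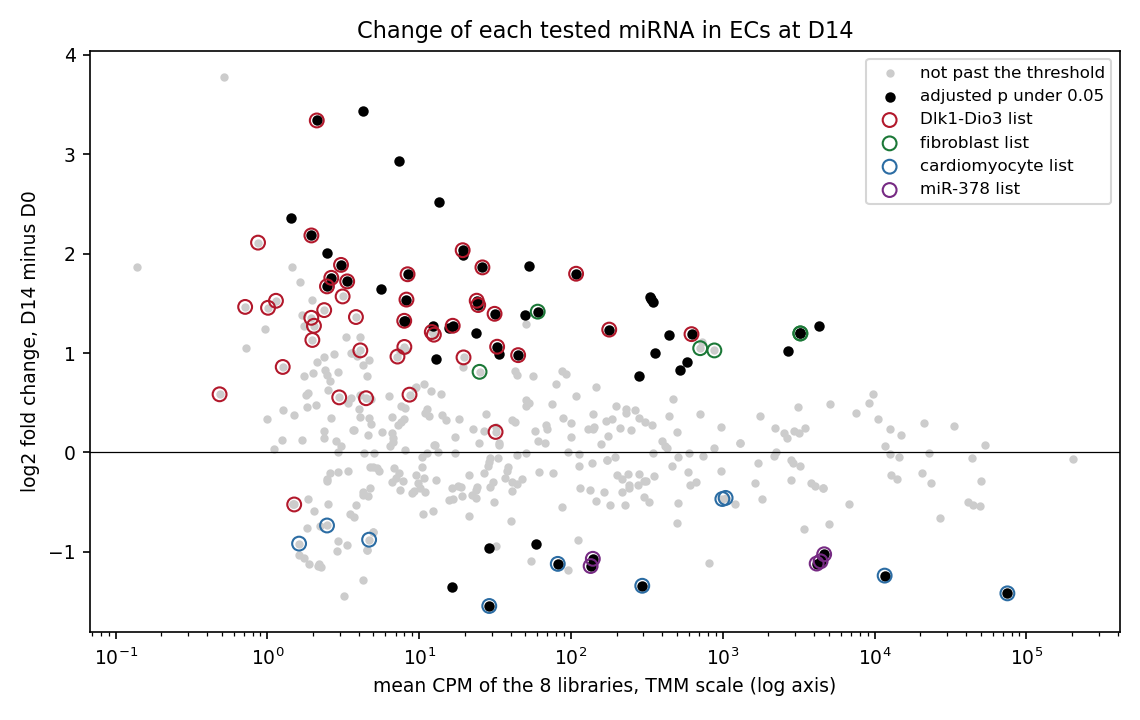
Log2 fold change of each of the 421 tested miRNAs in ECs (D14 minus D0) against its mean CPM on a log axis; each point is 1 miRNA, black points passed the test and coloured rings mark 4 lists. The Dlk1-Dio3 and fibroblast rings lie above 0 with 1 exception, and the cardiomyocyte and miR-378 rings lie below 0.

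The Dlk1-Dio3 cluster gave the largest group of higher miRNAs. Of 111 listed arms 43 were tested, and 20 of them were higher and none lower at D14, against 11.4% higher among all miRNAs tested. The log2 fold change was above 0 for 42 of the 43, with a median of 1.35 against 0.12 over all miRNAs tested. Of the 43, 23 had no overlap between groups, all of them higher, against 16.6% of all miRNAs tested. With D14 replicate 4 left out, 18 arms were higher, against 9.03% of all miRNAs tested. All 18 were among the 20, and the median was the same, 1.35. The 43 arms summed to 763, 705, 931 and 687 CPM at D0 and to 1483, 1889, 2092 and 1871 CPM at D14, so that every D14 library was above every D0 library.

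The member with the lowest adjusted p was miR-541-5p, whose hairpin lies in an intron of Mirg. It was at 41.7, 50.1, 54.1 and 46.7 CPM at D0 and at 133.4, 178.2, 162 and 198.9 CPM at D14. The groups were far apart, a 3.48-fold rise with a log2 fold change of 1.80 ± 0.26 (edgeR adjusted p = 3.31e-05). The most abundant member, miR-127-3p, is made antisense to Rtl1, the retrotransposon-derived gene that it silences. It was at 398, 357, 462 and 300 CPM at D0 and at 675, 840, 967 and 981 CPM at D14, a 2.28-fold rise (log2 fold change 1.19 ± 0.22, edgeR adjusted p = 4.02e-04). Again no D14 library reached down to the D0 range.

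miR-379-5p opens the distal part of the cluster. It was at 89.4, 93.9, 136.03 and 107 CPM at D0 and at 225, 286, 316 and 177 CPM at D14 (log2 fold change 1.24 ± 0.29, edgeR adjusted p = 0.00381). Other members past the threshold were under 50 CPM on average. Among them, miR-382-5p went from 9.62 to 12.4 CPM at D0 to 28.4 to 61.0 CPM at D14, and miR-433-3p, another arm antisense to Rtl1, from 6.01 to 9.10 CPM to 21.7 to 55.3 CPM. The largest log2 fold change in the cluster, 3.34 ± 0.76, was that of miR-341-3p, in an intron of Rian; it rested on 0 to 6 counts in the D0 libraries, 2 to 41 counts at D14, and groups that overlapped at 0.604 CPM in D14 replicate 1.

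The rise was spread over the length of the cluster. Of the 43 arms 41 had a position, within 180.1 kb on the plus strand of chromosome 12 (chr12:109563692-109743795), and each of these 41 had a log2 fold change above 0. The members past the threshold included arms antisense to Rtl1, an arm in an intron of Rian and arms in exons and introns of Mirg. miR-381-3p was the lowest of the 41, at 22.7 to 37.9 CPM at D0 and 20.8 to 44.3 CPM at D14 (log2 fold change 0.21 ± 0.35, edgeR adjusted p = 0.711).

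**Figure D2:**
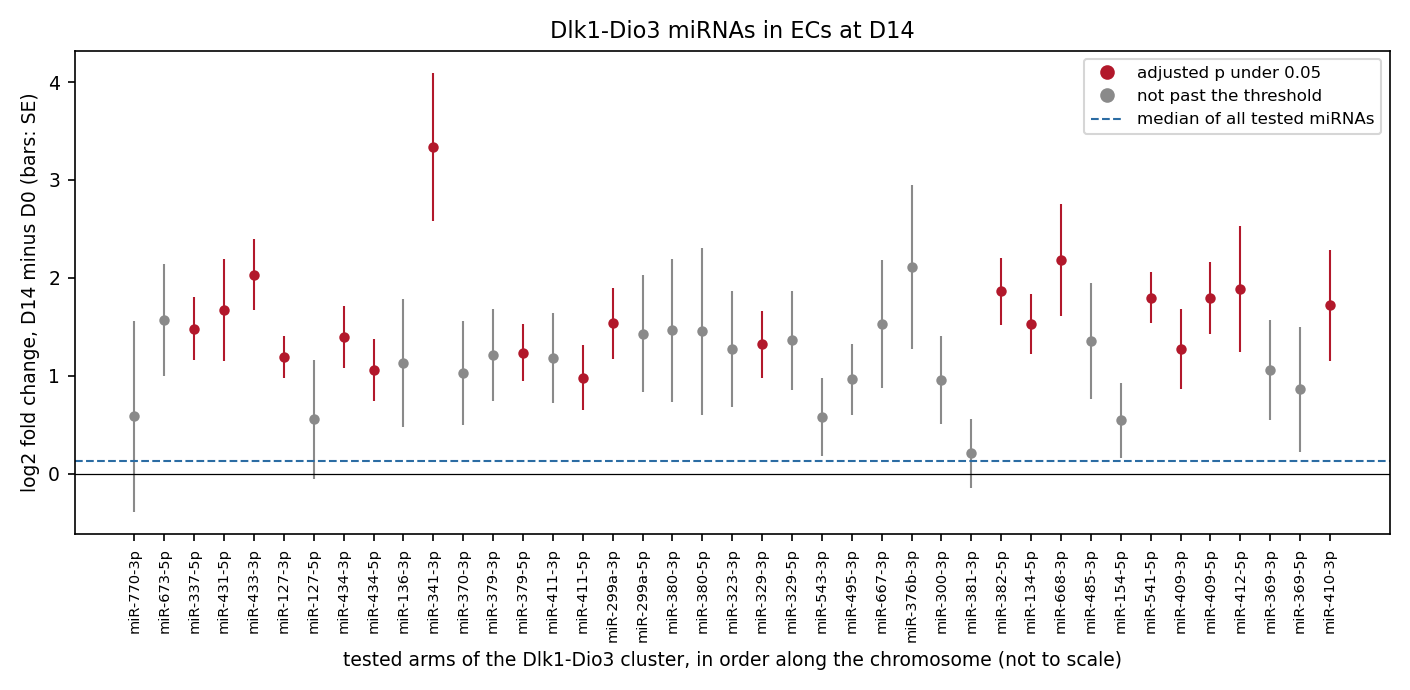
Log2 fold change in ECs, D14 minus D0, of 41 tested arms of the Dlk1-Dio3 cluster in their order along chromosome 12, with SE bars; red points passed the test and the dashed line is the median of all tested miRNAs. Every point lies above 0, from 0.21 for miR-381-3p to 3.34 for miR-341-3p.

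Of the 6 tested arms of the fibroblast list (miR-199a, miR-199b and miR-214), 3 were higher, against 11.4% of all miRNAs tested. They are 2 measurements, since miR-199a-3p and miR-199b-3p share their counts. All 6 arms had a log2 fold change above 0 (median 1.12). When D14 replicate 4 was left out, 4 were higher, against 9.03% of all miRNAs tested. miR-199a-3p was at 2101, 1580, 2550 and 1653 CPM at D0 and at 3975, 4146, 7372 and 2587 CPM at D14 (log2 fold change 1.20 ± 0.34, edgeR adjusted p = 0.0151). The lowest D14 library, replicate 4, was just above the highest D0 library.

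miR-214-3p is cut from the same Dnm3os transcript. It was at 24.4, 33.1, 42.3 and 31.1 CPM at D0 and at 70.6, 83.1, 117 and 81.1 CPM at D14 (log2 fold change 1.42 ± 0.27, edgeR adjusted p = 5.22e-04). In these tables a library of ECs can hold miRNA of other cells, and more cells of a type and more RNA per cell cannot be told apart. Of the fibroblast markers, the summed level (CPM by library size only) was 2399 to 3339 at D0 and 4869 to 11028 at D14. In FB libraries of the same days miR-199a-3p was far higher, so that its EC level was 4.50% of the FB level at D0 and 11.4% at D14; for miR-127-3p these shares were 7.13% and 14.2%, for miR-541-5p 5.38% and 15.5%. The part of fibroblast RNA in the rise of these miRNAs was not tested.

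Of 5 tested miR-34 arms 2 were higher (11.4% of all tested were), miR-34b-5p and miR-34c-5p, made from one transcript that p53 activates. The other 3 were not past the threshold: miR-34b-3p and miR-34c-3p, with log2 fold changes of 1.87 ± 0.69 and 1.05 ± 0.73, and miR-34a-5p, from another gene that p53 activates. miR-34c-5p was at 23.6, 18.2, 31.2 and 17.6 CPM at D0 and at 68.8, 87.9, 126 and 53.1 CPM at D14, without overlap (log2 fold change 1.88 ± 0.38, edgeR adjusted p = 0.00113). miR-34b-5p went from 2.59 to 11.4 CPM to 18.7 to 49.3 CPM (log2 fold change 1.99 ± 0.40, edgeR adjusted p = 9.68e-04). miR-34a-5p was at 25.6 to 29.0 CPM at D0 and 13.9 to 31.3 CPM at D14, with a log2 fold change of -0.38 ± 0.32. Its seed, GGCAGUG, is the same as that of miR-34b-5p.

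Several other miRNAs with large changes came in pairs from one locus. They are under the level set for named miRNAs and were chosen after their values were seen. miR-182-5p and miR-183-5p, sensory-organ miRNAs made from one cluster on chromosome 6, rose together. miR-182-5p was at 3.61 to 4.24 CPM at D0 and 14.4 to 27.8 CPM at D14, and its log2 fold change was 2.52 ± 0.38 (edgeR adjusted p = 4.99e-05). miR-183-5p had 0 to 1.20 CPM at D0 and 3.59 to 14.6 CPM at D14 (log2 fold change 3.43 ± 0.56, edgeR adjusted p = 9.93e-05). miR-298-5p and miR-296-5p, from the imprinted Gnas region of chromosome 2, were higher as well. miR-298-5p was at 1.46 to 2.07 CPM at D0 and 8.75 to 15.8 CPM at D14 (log2 fold change 2.93 ± 0.43, edgeR adjusted p = 3.31e-05), and miR-296-5p at 3.21 to 6.22 CPM and 7.24 to 17.9 CPM.

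miR-21a-5p, a miRNA of wound repair and fibrosis, was at 2888, 1857, 2935 and 2448 CPM at D0 and at 6861, 5835, 9046 and 2740 CPM at D14. Replicate 4 of D14 lay within the D0 range, and the log2 fold change was 1.27 ± 0.43 (edgeR adjusted p = 0.0444).

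**Figure D3:**
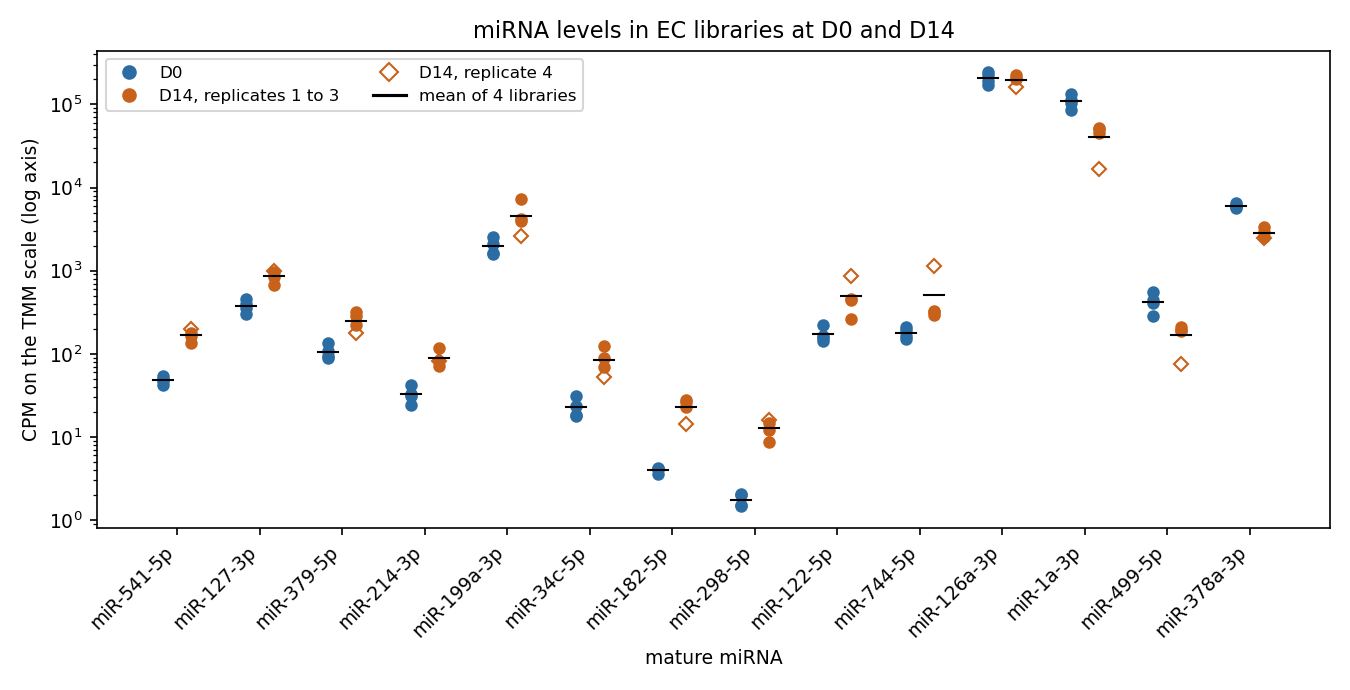
Level of 14 miRNAs in each of the 8 EC libraries, in CPM on the TMM scale on a log axis; blue points are D0, filled orange points D14 replicates 1 to 3, open diamonds D14 replicate 4, and black lines group means. miR-126a-3p overlaps between D0 and D14, miR-541-5p and miR-127-3p lie above D0 in all 4 D14 libraries, and miR-1a-3p lies below it.

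miR-122-5p, the main miRNA of liver cells, was at 222, 154.95, 143.95 and 165 CPM at D0 and at 439, 455, 260 and 854 CPM at D14 (log2 fold change 1.55 ± 0.38, edgeR adjusted p = 0.00619). Without D14 replicate 4, its adjusted p was 0.0429. miR-122b-3p, annotated as the antisense of the same hairpin, had 97.2% to 98.99% of its counts, so they are read as 1 signal. Among the other 9 tested miRNAs of the liver and gut list none passed the test.

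Several abundant miRNAs passed the threshold only with replicate 4 of D14, in which they lay above the other 3 libraries. miR-423-5p, from an intron of Nsrp1, was at 246 to 298.5 CPM at D0 and at 336.5, 374, 373 and 1362 CPM at D14 (log2 fold change 1.18 ± 0.33, edgeR adjusted p = 0.0151). Without that library its adjusted p was 0.295. miR-125b-5p was at 1683 to 1952 CPM at D0 and at 2495, 2972, 3404 and 5455 CPM at D14, with adjusted p-values of 0.0151 with the library and 0.10018 without it. miR-351-5p (0.138), miR-320-3p (0.282), miR-92a-3p (0.228) and miR-423-3p (0.141) also missed the threshold without it. miR-744-5p, from an intron of Map2k4, kept its call: it was at 151 to 209 CPM at D0 and at 296.7, 315, 327 and 1124 CPM at D14, with an adjusted p of 0.00341 with the library and 0.0445 without it.

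Among the 13 lower miRNAs, 10 belonged to the cardiomyocyte and miR-378 lists. Of 10 tested cardiomyocyte miRNAs 5 were lower, against 3.09% of all miRNAs tested, and all 10 had a log2 fold change below 0 (median -1.02). miR-1a-3p, the most abundant muscle miRNA, was at 103537, 133985, 86032 and 113245 CPM at D0 and at 51784, 44738, 50496 and 16507 CPM at D14. The groups did not overlap, and the level fell 2.67-fold (log2 fold change -1.42 ± 0.39, edgeR adjusted p = 0.0126).

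miR-208a-3p and miR-499-5p, made from myosin genes, fell as well. miR-208a-3p was at 27.1 to 55.2 CPM at D0 and 4.31 to 19.9 CPM at D14 (log2 fold change -1.54 ± 0.41, edgeR adjusted p = 0.0115). miR-499-5p was at 547, 413, 446 and 288 CPM at D0 and at 191, 189, 210 and 75.4 CPM at D14 (log2 fold change -1.34 ± 0.34, edgeR adjusted p = 0.00813). Without D14 replicate 4, which was the lowest of each, 2 of the 10 cardiomyocyte miRNAs were called, miR-208a-3p (adjusted p = 0.0376) and miR-499-5p (0.0324), and miR-1a-3p was at 0.0514. miR-206-3p and miR-1b-5p were called too, but miR-1b-5p is annotated antisense to miR-1a and its counts were 14.2% to 18.9% of those of miR-1a-3p, and miR-206-3p held 0.0985% to 0.170% of them and differs from it little in sequence, so both are uncertain.

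The summed level of the 5 cardiomyocyte markers was 75958 to 134290 CPM (library size only) at D0 and 20924 to 53913 CPM at D14. Both endothelial markers together were at 174749 to 215247 and at 200773 to 234295 CPM. Mural markers were at 48200 to 62913 and 37461 to 57086 CPM, leukocyte markers at 2276 to 2663 and 2400 to 4653 CPM, and red cell markers at 1058 to 2013 and 1046 to 2413 CPM. The EC level of miR-1a-3p was 15.7% of its CM level at D0 and 12.3% at D14, on the scale of library size only. For miR-1b-5p these shares were 19.2% and 17.8%, and for miR-206-3p 28.03% and 26.8%. For miR-208a-3p they were 35.4% and 0.625%, and for miR-499-5p 33.2% and 1.503%. In CM libraries the mean of miR-208a-3p was 116.6 CPM at D0 and 2416 CPM at D14. That of miR-499-5p was 1199.9 and 11789 CPM, while that of miR-1a-3p was 657447 and 353118 CPM. The part of cardiomyocyte RNA in the fall of these miRNAs was not tested.

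**Figure D4:**
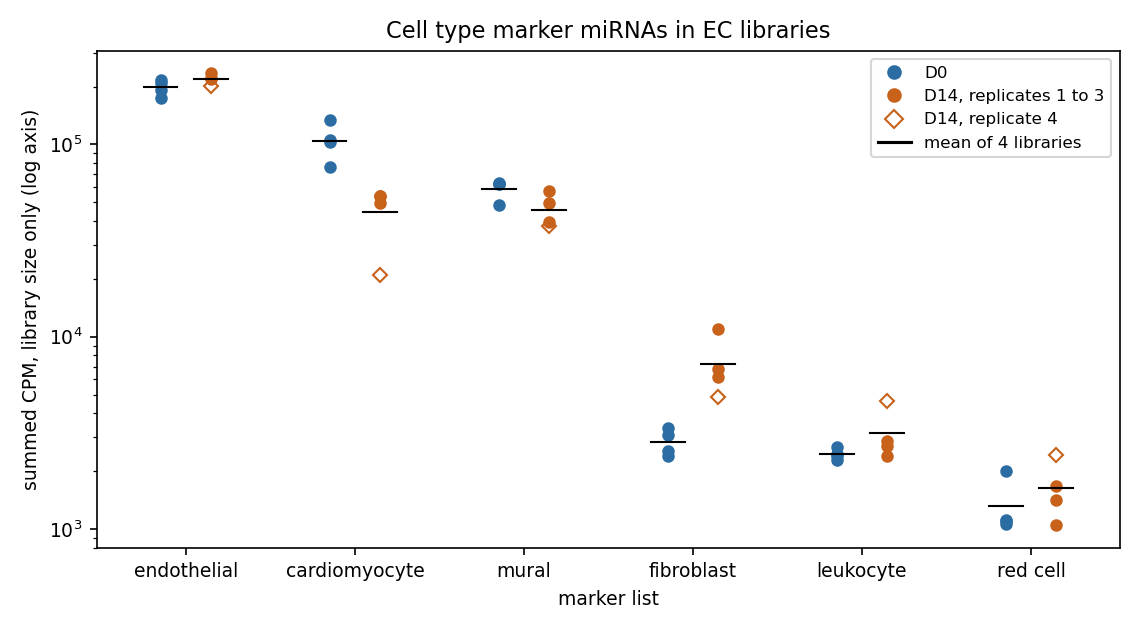
Summed CPM (library size only, log axis) of 6 lists of marker miRNAs in the 8 EC libraries; blue points are D0, filled orange points D14 replicates 1 to 3, open diamonds D14 replicate 4 and black lines the mean of 4. Cardiomyocyte markers lie lower and fibroblast markers higher in every D14 library, and the other 4 lists overlap between the groups.

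All 5 tested miRNAs of the miR-378 family were lower, against 3.09% of all miRNAs tested (median log2 fold change -1.10). miR-378a lies in the gene of the metabolic coactivator PGC-1β and is abundant in oxidative muscle. miR-378a-3p was at 6097, 5657, 5823 and 6462 CPM at D0 and at 3350, 2545, 2902 and 2456 CPM at D14 (log2 fold change -1.10 ± 0.25, edgeR adjusted p = 0.00366). Of the other members, miR-378c held 92.1% to 95.4% and miR-378d 101% to 115% of the counts of miR-378a-3p. Whether these members count partly the same reads was not tested, so they are not read as separate signals. Without D14 replicate 4, 3 of the 5 were lower, and miR-378a-5p and miR-378b were at edgeR adjusted p-values of 0.10018 and 0.0514. By library size alone the same 3 were lower, with edgeR adjusted p-values of 0.103 for miR-378a-5p and 0.0606 for miR-378b. Outside these lists miR-187-3p, miR-467a-5p and miR-181c-5p were lower. miR-181c-5p was at 66.4 to 103 CPM at D0 and 19.4 to 54.8 CPM at D14 (edgeR adjusted p = 0.0432). Without D14 replicate 4 its edgeR adjusted p was 0.141, and by library size alone 0.0975. The other 3 tested miRNAs with its seed, ACAUUCA, were not past the threshold.

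Of most other families no member was past the threshold. None of the tested members of let-7 (19), miR-29 (6), miR-30 (11), miR-26 (4), miR-221 and miR-222 (3) and miR-132 and miR-212 (4) passed the test, nor did those of the hematopoietic list (10), the erythroid list (7) or the mural list (4). All 6 of the miR-29 family, which targets collagen messenger RNAs, and all 4 mural miRNAs had log2 fold changes below 0, with medians of -0.53 and -0.63. In the miR-30 family 4 of 11 members had no overlap between groups, all lower, against 9.26% of all miRNAs tested; its summed level was 135279 to 168390 CPM at D0 and 89342 to 127720 CPM at D14. The summed levels of miR-26 (54660 to 67995 and 36953 to 54172 CPM) and of miR-221 and miR-222 (422 to 549 and 600 to 733 CPM, higher at D14) did not overlap either. On this TMM scale the sum over all tested miRNAs was also lower without overlap, 1012456 to 1149290 CPM at D0 and 825228 to 984837 CPM at D14. By library size alone, the median log2 fold changes of miR-30 and miR-26 were -0.13 and -0.07. That of miR-221 and miR-222 was 0.45, against 0.34 for all miRNAs tested. miR-210-3p, which rises in hypoxia, was at 20.2 to 26.7 CPM at D0 and 25.8 to 34.7 CPM at D14 (log2 fold change 0.39 ± 0.25, edgeR adjusted p = 0.34). The balance of the arms was compared in 104 hairpins, and none passed the test (limma, smallest adjusted p = 0.303); at an unadjusted p under 0.05 there were 8 (7.69%). The largest change among these 8 was in miR-744, whose 5p arm exceeded its 3p arm by a log2 ratio of 5.84 ± 0.74 in the D0 libraries and 8.32 ± 2.44 in the D14 libraries (SD, n = 4 each). The groups overlapped, at 4.91 to 6.62 at D0 and at 6.30, 8.74, 6.65 and 11.6 at D14. The highest ratio was that of D14 replicate 4, the shallowest library. The 3p arm of miR-744 averaged 14.6 counts over the EC libraries. Among these 8, miR-27b, miR-574, miR-148a and miR-335 had no overlap between D0 and D14. The arms of miR-335 averaged 1488 and 2040 counts. Its log2 ratio was 0.25 ± 0.25 at D0 and -0.50 ± 0.16 at D14 (SD, n = 4 each).

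The position of D14 between D7 and D28 was tested directly. At D14, 9 of 421 miRNAs differed from D7 (2.14%), all lower. Of the 9, 8 were among the 43 tested Dlk1-Dio3 arms. miR-541-5p was at 354 ± 93.3 CPM (SD, n = 4) at D7 and 168 ± 27.6 CPM at D14 (log2 fold change -1.08 ± 0.25, edgeR adjusted p = 0.033). miR-127-3p was at 1541 ± 291 CPM at D7 and 866 ± 142.2 CPM at D14. The median log2 fold change of the 43 Dlk1-Dio3 arms was -1.08 from D7 to D14, against 0.02 for all miRNAs tested. For the 6 fibroblast arms it was -0.39, with none past the threshold. The count of 9 was not firm, since it was 2 without D14 replicate 4 and 24 without D7 replicate 4.

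**Figure D5:**
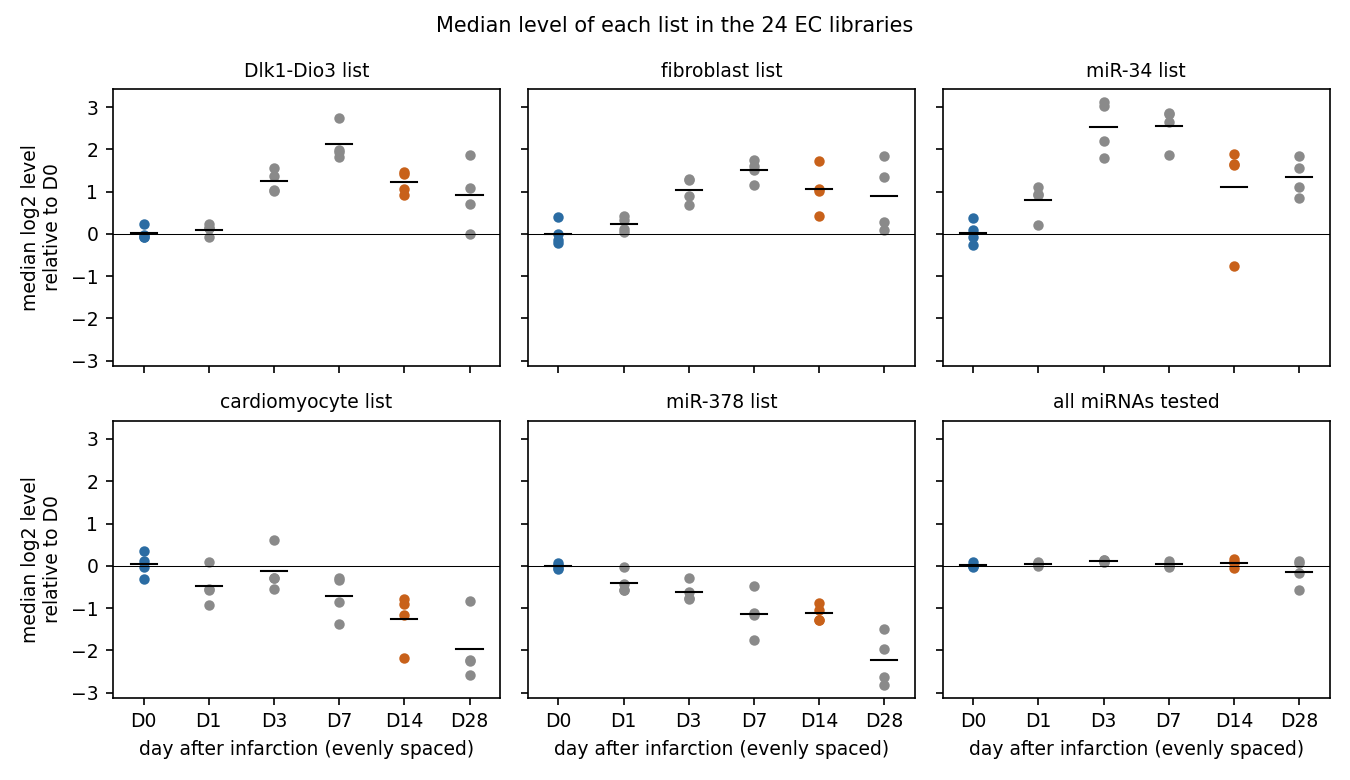
Median log2 level over the members of 5 lists and of all tested miRNAs, relative to the D0 mean of each member, in each of the 24 EC libraries by day after infarction (days evenly spaced); points are libraries and black lines the mean of 4. The Dlk1-Dio3 list reaches 1.83 to 2.73 at D7 and 0.922 to 1.47 at D14, and the miR-378 list is at -1.28 to -0.882 at D14 and at -2.82 to -1.50 at D28.

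Against D28, 107 miRNAs differed (25.4%), 48 higher (11.4%) and 59 lower (14%) at D14, and between D28 and D0 198 differed (47%). Cardiomyocyte miRNAs had 5 of 10 higher at D14 than at D28 and the miR-378 list 3 of 5, and no member of either was lower. miR-122-5p was lower at D14 than at D28 by 1.65 on the log2 scale (edgeR adjusted p = 0.0042), and Dlk1-Dio3 arms were split into 3 higher and 7 lower. The count of 107 fell to 66, 69 and 58 without D14 replicates 1, 2 and 3 and was 161 without D28 replicate 1, and the lower miRNAs ranged from 26 to 72 when 1 library was left out. The study removed a D28 replicate of ECs without naming it, and all 4 were kept here. The D28 libraries were themselves 1.67 to 1.90 apart within their group, the widest spread of any day. With library size as the only scaling, 90 were higher and 28 lower.

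Whether the D14 change was different in ECs was tested as the EC change minus the mean change of CMs, FBs and HCs, in all 96 libraries and 712 miRNAs. It differed for 118 of them (16.6%), 44 higher (6.18%) and 74 lower (10.4%) in ECs. Without D14 replicate 4 of ECs it differed for 55, 23 higher and 32 lower. The pools of the 4 cell types at one day came from the same mice, and the test treats the libraries as independent. All libraries entered it, also a D0 replicate of HCs and of FBs that the study removed without naming them. With library size as the only scaling it differed for 212, 25 of them higher. In CMs, for example, the mean level of miR-744-5p by library size was 27.04 CPM at D0 and 27.13 CPM at D14, while its log2 fold change on the TMM scale was -2.29. For Dlk1-Dio3 arms the difference had a median of 0.05, and 4 were higher and 1 lower in ECs. Of these arms 28 were called higher in CMs, 23 in HCs and 3 in FBs, against 179, 53 and 45 of the 421 miRNAs. Under both scalings, miR-122-5p, miR-744-5p and miR-423-5p were higher in ECs than in the mean of the others. Their differences were 1.94, 2.04 and 1.76 on the log2 TMM scale. Under both, miR-499-5p (-1.26) and miR-378a-5p (-1.49) were lower. On the TMM scale CMs changed the other way in each, with log2 fold changes of -1.41, -2.29, -2.29, 0.98 and 2.23 in this order. By library size miR-122-5p, like miR-744-5p, did not fall in CMs, with means of 0.873 CPM at D0 and 1.59 CPM at D14. Nor did miR-423-5p, with 39.6 and 40.4 CPM. The log2 fold changes of miR-499-5p and miR-378a-5p on the TMM scale were -1.16 and -0.90 in HCs and -0.26 and -0.60 in FBs. In FBs and HCs, miR-122-5p, miR-744-5p and miR-423-5p had log2 fold changes of -0.58 to 0.43. When D14 replicate 4 was left out, miR-499-5p and miR-541-5p missed the threshold (edgeR adjusted p-values of 0.145 and 0.0851). miR-541-5p (0.90) and miR-379-5p (1.01) were past the threshold with TMM only, with 0.38 and 0.45 by library size alone. Of the Sfmbt2 cluster, a rodent group of repeated hairpins, 14 of 19 tested miRNAs were lower in ECs by this test, though 1 of the 19, miR-467a-5p, was lower in ECs at D14 itself.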

How the data were processed

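The authors trimmed the reads, removed those under 18 nt and aligned them to miRBase sequences (nf-core smrnaseq); the submitters' notes name Trim Galore, Bowtie2, SAMtools and the mm10 build. The deposited values are raw counts of reads per mature miRNA, 1 table per library. How reads that match several sequences were assigned, and whether the counting used strand, is not given in the sources used here. The line of reads with no match (48.5% to 67.3% of the total at D0 and 50.6% to 76.6% at D14) was left out of library sizes and tests, and the hairpin tables were not used.

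From these counts, edgeR 4.0.16 in R 4.3.3 was run on the 24 EC libraries, or on 96 for the comparison with other cell types, with filterByExpr, TMM factors, the quasi-likelihood test and Benjamini-Hochberg adjustment over all miRNAs tested (threshold 0.05). limma 3.58.1 was used for arm ratios, as the log2 ratio of counts with 0.5 added, where both arms averaged at least 10 counts. The scripts were tested on simulated data. Groups came from the labels. Single miRNAs of 4 libraries against 4 cannot reach an exact permutation p below 0.0286. The alternatives were DESeq2 1.42.0, scaling by library size alone, all miRNAs without a filter, the replicate number as a block, only the 8 libraries, 1 miRNA of each identical set, each library left out, and for arm ratios a pseudocount of 5 and a minimum of 50 counts. Leaving out D14 replicate 4 with the filter repeated, the list counts without it, and the replicate number within each day as a block shared by the cell types were chosen after seeing the data. No library duplicated another. Same-numbered libraries of D14 and D0 did not deviate together.

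The named miRNAs were the 12 largest rises and falls past the threshold whose mean reached 50 CPM and whose groups did not overlap, both arms of miR-126a, the 5 most abundant miRNAs, the 2 most abundant tested members of each list, the 4 hairpins with the largest arm change past the threshold, of which there were none, and miRNAs sharing counts or a seed with the first group. Others were chosen after their values were seen. The comparison, the lists and the rules were chosen with earlier results of these data known. GC content was compared as a check: the median was 50.0% for the 42 of 48 higher miRNAs with a sequence and 47.8% for 355 of 421 tested, and the check was void for the lower ones, with a sequence for 7 of 13.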

Additional observations from a re-analysis of the deposited data

Results flagged for a closer look

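In groups of 4 libraries, the highest or lowest library was set against the other 3 for each of the 22 most changed miRNAs, and 4 of 44 groups had a library far from the rest; chance flags about 1 in 20. In 3 of them it was replicate 4 of D14, the shallowest library: miR-423-5p at 1362 CPM, miR-744-5p at 1124 CPM and miR-499-5p at 75.4 CPM. The fourth was miR-181c-5p in D0 replicate 1, at 103 CPM.

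For 8 of these 22 miRNAs the change in ECs differed from the mean change in CMs, FBs and HCs (edgeR interaction test on 96 libraries). Among all 712 miRNAs tested it differed for 118 (16.6%). The 22 were chosen by their EC change, which is also a term of this test, so 8 of 22 cannot be read as an excess. miR-122-5p and miR-122b-3p are read as 1 signal. On the log2 scale the difference was 1.94 for miR-122-5p, 2.10 for miR-122b-3p, 2.04 for miR-744-5p, 1.76 for miR-423-5p, 1.01 for miR-379-5p, 0.90 for miR-541-5p, -1.26 for miR-499-5p and -1.49 for miR-378a-5p. Without D14 replicate 4, miR-541-5p (adjusted p = 0.0851) and miR-499-5p (0.145) were not past the threshold, and the other 6 were. By library size alone, miR-541-5p (0.39) and miR-379-5p (0.297) were not past it.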

How the results depend on the processing

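All 61 called miRNAs kept their direction under every alternative set at the start, and 30 stayed past the threshold under each of these that tested them. The count of 61 was 90 with DESeq2, 60 without a filter and 74 from the 8 libraries alone; lower miRNAs were 31 with DESeq2 and 28 from the 8 libraries. Leaving out each library gave 42 to 60 calls, with 7 (without D14 replicate 4) to 20 (without D14 replicate 1) lower. With the replicate block the calls were 54 against D0, 11 against D7 (2 higher), 89 against D28, 113 for the difference from other cell types and 0 for arm ratios; same-numbered EC libraries of D0 and D14 share only a number, with correlations of -0.0734 to 0.12. Pools of different cell types at one day share mice, but no source used here says that equal numbers mark one pool: 24 pairs of an EC library and a library of another cell type with its number, at D0 or D14, had correlations of -0.177 to 0.133, and 3 were over 0.1. A replicate block within each day across cell types, chosen after seeing the data, gave 119 calls (47 higher, 72 lower).

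Against D7, the 9 calls were 27 with DESeq2 (3 higher, 24 lower), 22 by library size, 17 without a filter and 15 with the filter repeated without D14 replicate 4; leaving out each library gave 2 to 24 (0 to 2 higher, 2 to 24 lower), with 2 without D14 replicate 4, 5 and 24 without D7 replicates 3 and 4, 17 without D7 replicate 2 and 15 without D14 replicate 2. Against D28, leaving out each library gave 58 to 161 calls (25 to 89 higher, 26 to 72 lower), 58 without D14 replicate 3, 66 without D14 replicate 1, 69 without D14 replicate 2 and 161 without D28 replicate 1; 90 higher and 28 lower by library size, and 86 higher with the filter repeated. For the difference from other cell types DESeq2 gave 71 higher, library size 212 calls (25 higher, 187 lower), and leaving out each library 55 to 126 (23 to 50 higher, 32 to 84 lower), with 55 without D14 replicate 4 and 49 lower without D0 replicate 3. Arm ratios gave 0 calls under each alternative run; DESeq2 could not be applied to ratios. The cause of these shifts was not tested. Depth limits miRNAs under about 5 CPM, where D14 replicate 4 held few counts.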

Other observations

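Among the most abundant miRNAs of ECs, let-7a-5p was at 47867 to 58519 CPM at D0 and 52215 to 56860 CPM at D14, and miR-26a-5p at 49354 to 61241 and 35149 to 49554 CPM; both groups overlapped and neither passed the test. miR-143-3p, a mural miRNA, was at 48539 to 67412 CPM at D0 and 28278 to 51582 CPM at D14 (log2 fold change -0.54 ± 0.34, edgeR adjusted p = 0.31).

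Some miRNAs chosen after their values were seen were higher at D14 outside the lists. miR-224-5p, from chromosome X, was at 22.0 to 31.6 CPM at D0 and at 54.0 to 96.9 CPM at D14 (log2 fold change 1.39 ± 0.22, edgeR adjusted p = 9.93e-05). miR-672-5p, also on chromosome X, was at 7.21 to 10.4 and 17.9 to 30.9 CPM (1.25 ± 0.29, edgeR adjusted p = 0.00381). Both arms of miR-147, a miRNA induced in inflammatory signalling, were called; miR-147-3p was at 0.801 to 1.36 CPM at D0 and 1.44 to 6.50 CPM at D14, and miR-147-5p at 0.170 to 1.04 and 0 to 3.32 CPM.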
